A study of Mus musculus with 16 samples.

Results

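The 35 genes described here encode lysosomal proteins other than cathepsins: hydrolases, their helper proteins, proteins of the lysosomal membrane, 1 peptidase and 1 transcription factor. They were taken by mouse symbol from a list, out of 45706 genes in the deposited count table. No cut on their values was used, but the list was chosen with earlier results of these data known. Of the 45706 genes, 20116 passed the filter on low counts, and all 35 of the listed genes were among these. By role, 17 act on glycans, 10 on lipids, 6 sit in the lysosomal membrane, and the remaining 2 are the peptidase gene Tpp1 and the transcription factor gene Tfeb.

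RNA was sequenced from ear clips of 8 male mice of the inbred strain C57Bl/6J, which carry no stated transgene or treatment. Each mouse was clipped in 1 ear at 24 months and in the other ear at 30 months, which gave 16 libraries, 8 at each age, paired within the animal. The labels give exact ages of 23.8 to 24.4 months (age category young) and 29.0 to 30.1 months (age category old). Age, ear side and time of sampling changed together between the groups and cannot be told apart, and both groups are of advanced age. Mice are named by the numbers in their sample titles: 13, 14, 21, 29, 43, 50, 64 and 75.

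The libraries held 27494852 to 35527197 counts on genes at 24 months and 22967222 to 36162431 at 30 months. Levels are given as CPM (counts scaled to a library of fixed size, after trimmed-mean normalization), or as RPKM (CPM per kilobase of exon) where genes are compared with each other. The tissue matched its label by most of the markers of skin and ear. All 6 basal keratinocyte markers were detected (summed CPM 8573 to 16980 over the 30-month libraries), and so were the 6 fibroblast markers. Of the 7 cartilage markers 6 passed the filter on low counts, and Matn1, a matrilin of cartilage, had a median of 0.0 CPM. Of the 6 differentiated keratinocyte markers 5 passed it, and Flg had means of 0.035 CPM at 24 months and 0.012 CPM at 30 months. In whole biopsies, fewer cells of a type and less RNA per cell cannot be told apart. Mouse 50 stood apart at 30 months in many of the measures below, so values without it stand beside the results that it moves. Leaving out each mouse was planned, and the emphasis on mouse 50 came after its values were seen.

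Lysosomes are acidic organelles in which acid hydrolases take apart glycoproteins, glycosaminoglycans, glycolipids and proteins. The hydrolases reach the organelle mostly through mannose 6-phosphate receptors, and inherited loss of a single one leads to storage of its substrate. In skin they are used by keratinocytes and, abundantly, by macrophages, and the epidermal barrier depends on lipids that lysosome-related enzymes process. TFEB, encoded by Tfeb, switches on many lysosomal genes by binding an E-box element in their promoters.

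Promoter windows from 250 bases before to 50 bases after the transcription start were taken from RefSeq (GRCm38.p6) and matched 30 of the 35 genes. For Asah1, Aga, Galns, Hgsnat and Npc1 no window was among those searched. The windows were searched on both strands for 3 nested motifs: the E-box core CACGTG, its extension by a T before it or an A after it, and the palindrome with both. Written out, the extension is TCACGTG or its reverse complement. The palindrome is TCACGTGA. The core was found in 9 of the 30 genes (30.0%) and in 8.09% of the 27025 genes whose windows were searched. The extension was found in the same 9 genes, Arsa, Cln3, Gaa, Gla, Glb1, Lamp1, Mcoln1, Naglu and Sgsh, and in 4.29% of those 27025 genes. The palindrome was found in Cln3, Gla and Mcoln1, against 1.12% of those 27025 genes. The 4 windows below are those with the palindrome and the one with the most cores, that of Lamp1. Capitals mark each core with the flanking T or A where the extension or palindrome is present, and each sequence runs 5′ to 3′ on the strand of the gene.
Cln3, chr7:126583187-126583486, minus strand: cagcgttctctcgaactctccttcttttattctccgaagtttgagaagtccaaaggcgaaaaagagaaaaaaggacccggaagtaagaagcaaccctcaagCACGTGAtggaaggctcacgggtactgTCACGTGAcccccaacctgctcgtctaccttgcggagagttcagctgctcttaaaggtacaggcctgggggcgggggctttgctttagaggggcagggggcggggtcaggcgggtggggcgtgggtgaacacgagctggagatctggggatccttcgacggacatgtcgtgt
Gla, chrX:134600956-134601255, minus strand: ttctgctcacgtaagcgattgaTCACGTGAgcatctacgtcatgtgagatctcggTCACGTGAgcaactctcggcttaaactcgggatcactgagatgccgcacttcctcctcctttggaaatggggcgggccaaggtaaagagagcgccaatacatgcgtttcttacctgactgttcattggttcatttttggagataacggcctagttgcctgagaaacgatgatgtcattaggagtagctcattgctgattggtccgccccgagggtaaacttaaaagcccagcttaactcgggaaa
Lamp1, chr8:13158911-13159210, plus strand: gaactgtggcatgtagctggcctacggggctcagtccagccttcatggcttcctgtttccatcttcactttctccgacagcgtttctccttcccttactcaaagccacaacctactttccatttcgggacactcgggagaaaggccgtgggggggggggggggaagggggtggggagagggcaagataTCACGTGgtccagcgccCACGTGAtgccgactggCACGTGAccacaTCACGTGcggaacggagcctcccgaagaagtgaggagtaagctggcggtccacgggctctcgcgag
Mcoln1, chr8:3500269-3500568, plus strand: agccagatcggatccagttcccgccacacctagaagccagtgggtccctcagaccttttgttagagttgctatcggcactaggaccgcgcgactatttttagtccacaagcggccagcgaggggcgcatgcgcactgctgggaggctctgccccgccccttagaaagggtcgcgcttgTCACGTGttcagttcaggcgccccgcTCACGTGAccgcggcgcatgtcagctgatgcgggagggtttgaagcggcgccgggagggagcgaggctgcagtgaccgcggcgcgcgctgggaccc

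In Lamp1 the 4 cores began 61, 45, 28 and 15 bases before the start. The palindrome of Mcoln1 began 46 bases and that of Cln3 122 bases before the start, and Gla held a pair of them at 228 and 195 bases. In the other 5 genes a single core was found, 16 bases before the start in Arsa, 29 in Sgsh, 48 in Glb1, 73 in Naglu and 140 in Gaa. These are matches of letters, and binding was not measured. The fitted log2 change from 24 to 30 months had a median of -0.01 over the 9 genes with a core and 0.05 over the 21 genes without one, and neither value is a test of the motif. Without mouse 50 these medians were -0.08 and 0.01.

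Measured per length, the 35 genes spanned a wide range of levels. Psap, the precursor of the saposins that present sphingolipids to their hydrolases, was the highest with a median of 299 RPKM over the 16 libraries. Lamp1, a heavily glycosylated protein of the lysosomal membrane, followed with 169 RPKM. The third was Fuca1, the lysosomal fucosidase, with 42.6 RPKM, and the next were Lamp2 (36.6 RPKM), Smpd1 (31.1 RPKM) and Scarb2 (29.2 RPKM). At the low end were Galc (1.18 RPKM), which cleaves galactosylceramide, Arsb (1.29 RPKM) and Galns (2.11 RPKM), both sulfatases of glycosaminoglycans. The length used joins all annotated exons of a gene (14879 bases for Galc), so this order depends on the annotation. By median CPM at 24 months, Fuca1 (139.5) was below Lamp2 (353), Scarb2 (181) and Npc2 (146). Galc (17.6) was then above Arsb (8.46) and Galns (5.60). Even the lowest count of any of the genes in any library was 116, for Galns.

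The comparison of 30 with 24 months asks how these genes change with advancing age within the same animal. With edgeR's quasi-likelihood test and a term for each mouse, 0 of the 35 genes passed an adjusted p of 0.05, and neither did any other gene (0.0% of the 20116 tested). The adjusted p of the 35 genes lay between 0.359 and 0.985. DESeq2's Wald test called 241 of all genes and 0 of the 35. At an unadjusted p under 0.05, 1 of the 35 genes was below the threshold in edgeR, Ppt1, which was lower at 30 months. Of all genes tested, 12.2% were below it, 4.83% higher and 7.37% lower at 30 months. DESeq2 gave the same single gene, beside 11.5% of all genes tested.

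The fitted change was above 0 for 21 of the 35 genes, against 52.1% of all genes tested. Its median was 0.04 on the log2 scale over the 35 genes and 0.01 over all genes. By role it was 0.04 for glycan genes (range -0.22 to 0.18), 0.04 for lipid genes (-0.18 to 0.18) and 0.07 for membrane genes (-0.08 to 0.16). Without mouse 50 the glycan median turned to -0.02, and the lipid and membrane medians were 0.01 and 0.05. The 95% intervals of single genes reached at most from -0.61 (Arsb) to 0.55 (Galns), so changes of the size of a doubling lay outside all of them. One gene, Npc2, was higher at 30 months in at least 7 mice (6.53% of all genes tested), and 3 genes, Hexa, Ppt1 and Cln3, were lower in 7 of 8 mice (8.59% of all genes tested). The groups overlapped for all 35 genes, whereas 0.224% of the genes tested did not overlap.

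**Figure D1:**
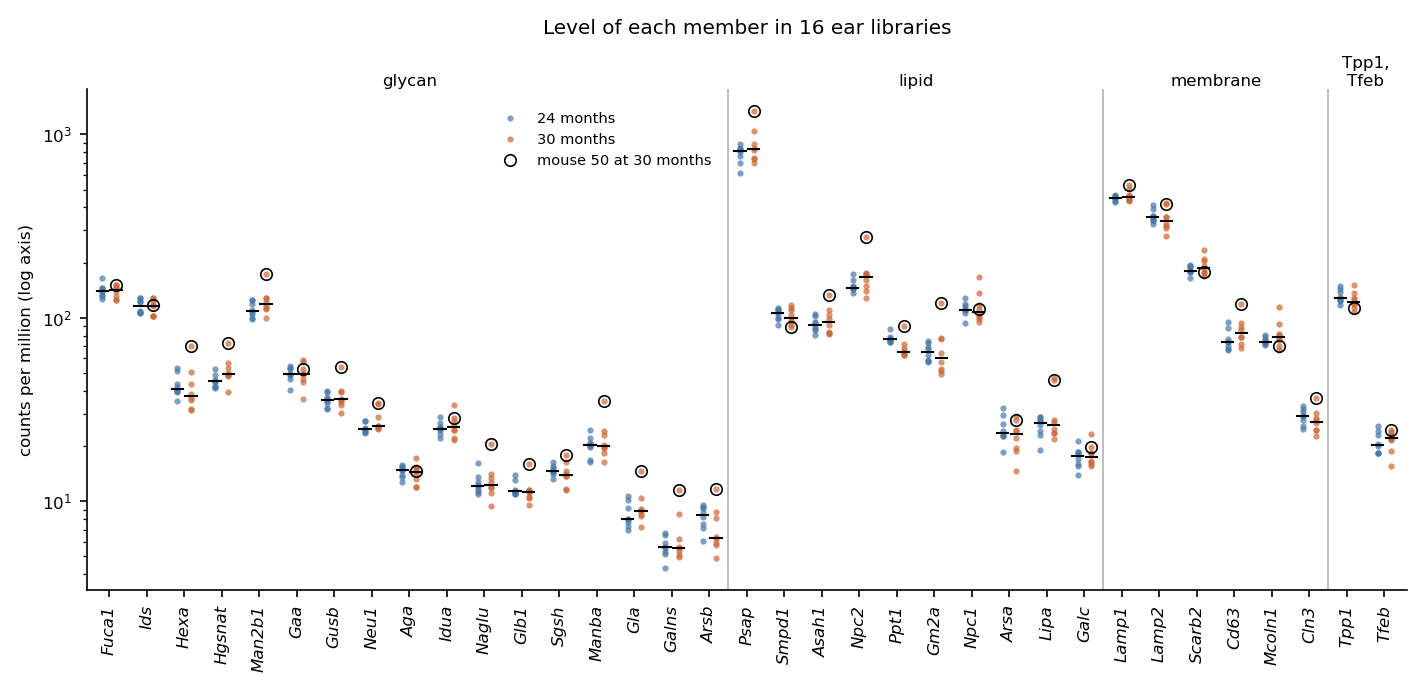
CPM (log axis) of the 35 genes in the 16 libraries, by role and, within a role, by falling median RPKM, with 1 point per mouse at 24 (blue) and 30 months (orange), bars at the medians and a ring around mouse 50 at 30 months. The points of the ages overlap for every gene, and the ringed library is the highest of the 16 for 20 of the 35 genes.

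**Figure D2:**
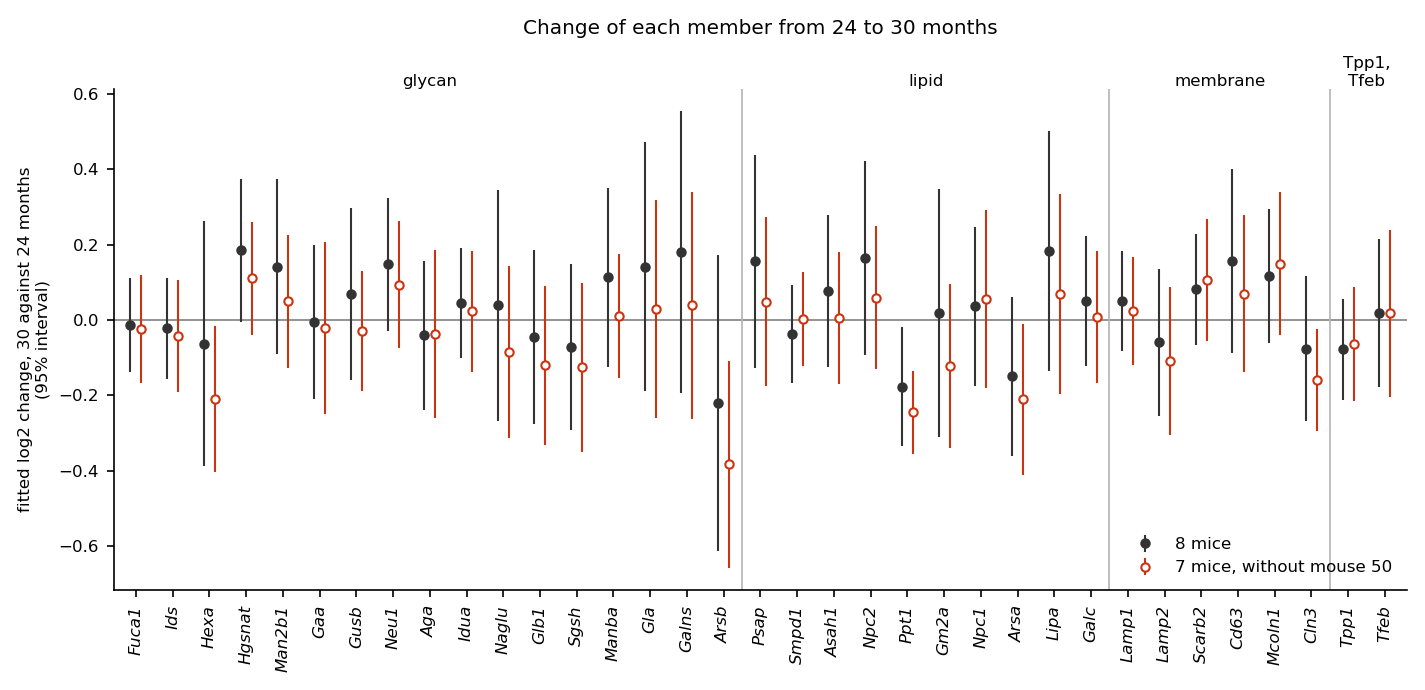
Fitted log2 change from 24 to 30 months with its 95% interval for each of the 35 genes, over 8 mice (filled) and over 7 mice without mouse 50 (open). With 8 mice only the interval of Ppt1 lies clear of 0, and without mouse 50 those of Hexa, Arsb, Ppt1, Arsa and Cln3 do.

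Among the glycan genes, the fucosidase gene Fuca1 was at 127 to 166 CPM at 24 months (median 139.5) and at 125 to 151 CPM at 30 months (median 142). Its fitted log2 change was -0.01 ± 0.06 (SE, n = 8 mice, edgeR adjusted p = 0.938), and 4 of 8 mice were higher at 30 months. The 95% interval of this change ran from -0.14 to 0.11. Ids, the iduronate 2-sulfatase that acts on heparan and dermatan sulfate, had 106 to 129 CPM at 24 months (median 116.0) and 102 to 129 at 30 months (median 116). Its change was -0.02 ± 0.06 (edgeR adjusted p = 0.897), and the ranges coincided almost completely.

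Hexa encodes the alpha subunit of beta-hexosaminidase, which removes the terminal sugar of the ganglioside GM2. It had 35.1 to 53.1 CPM at 24 months (median 41.1) and 31.5 to 70.2 CPM at 30 months (median 37.5). The highest value at 30 months was that of mouse 50, whose own level at 24 months was the lowest of the 8. The fitted change was -0.06 ± 0.15 (edgeR adjusted p = 0.876) although 7 of 8 mice were lower at 30 months. Without mouse 50 it was -0.21 ± 0.09, with an unadjusted p of 0.0365 and an edgeR adjusted p of 0.386, and without mouse 13 it turned to 0.03. Of the exon bases of Hexa, 12.8% are shared with the antisense gene Tmem202, and whether reads were assigned by strand is not given in the sources used here.

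The 3 glycan genes with the smallest p had values above 0. Hgsnat, the membrane acetyltransferase of heparan sulfate breakdown, had 41.2 to 52.8 CPM at 24 months (median 45.0) and 39.4 to 72.8 CPM at 30 months (median 49.6), with a change of 0.18 ± 0.09 (unadjusted p = 0.0555, edgeR adjusted p = 0.42, higher in 6 of 8 mice). Neu1, the lysosomal sialidase, had 23.5 to 27.4 CPM and then 24.8 to 34.5 CPM (medians 24.9 and 25.8), with a change of 0.15 ± 0.08 (edgeR adjusted p = 0.481, higher in 6 of 8 mice). Man2b1, the lysosomal alpha-mannosidase, had 97.9 to 125.0 CPM and then 99.2 to 174 CPM (medians 109 and 119), with a change of 0.14 ± 0.10 (edgeR adjusted p = 0.592, higher in 4 of 8 mice). In each of these genes the top of the 30-month range was mouse 50. Without it, the changes were 0.11 for Hgsnat, 0.09 for Neu1 and 0.05 for Man2b1.

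Arsb, the N-acetylgalactosamine 4-sulfatase, had the lowest fitted change of all 35 genes. Its level was 6.05 to 9.55 CPM at 24 months (median 8.46) and 4.89 to 11.7 CPM at 30 months (median 6.28), and 6 of 8 mice were lower. Mouse 50 was the lowest library at 24 months and the highest at 30 months. The change was -0.22 ± 0.18 (edgeR adjusted p = 0.626) with all mice and -0.38 ± 0.12 (unadjusted p = 0.0113, edgeR adjusted p = 0.298) without mouse 50. Without mouse 29 it was -0.13. Antisense genes share 39.9% of the exon bases of Arsb, so its counts are uncertain.

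The other 10 glycan genes had adjusted p from edgeR of 0.675 or above. Their changes were 0.18 for Galns, 0.14 for the alpha-galactosidase Gla, 0.11 for the beta-mannosidase Manba, 0.07 for the beta-glucuronidase Gusb, 0.05 for the iduronidase Idua and 0.04 for the glucosaminidase Naglu. They were -0.01 for the glycogen-degrading glucosidase Gaa, -0.04 for the aspartylglucosaminidase Aga, -0.05 for the beta-galactosidase Glb1 and -0.07 for the sulfamidase Sgsh. Apart from Galns and Manba, each of these changes was smaller than its standard error. Without mouse 50 the changes were 0.04 for Galns, 0.03 for Gla, 0.01 for Manba, -0.03 for Gusb, 0.02 for Idua and -0.08 for Naglu. They were then -0.02 for Gaa, -0.04 for Aga, -0.12 for Glb1 and -0.13 for Sgsh. Without mouse 13 that of Gla was 0.24, and without mouse 21 that of Sgsh was -0.0053. In the single mice, the changes of these 10 genes ran from -0.56 (Gla in mouse 13) to 1.15 (Galns in mouse 50). Sgsh shares 21.6% of its exon bases with the antisense gene Card14, and Glb1 5.49% with Tmppe on the same strand.

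Among the lipid genes, Psap was at 617 to 886 CPM at 24 months (median 812) and at 700.1 to 1331 CPM at 30 months (median 829.5). Mouse 50 gave the highest value, and its Psap level went from 701 to 1331 CPM. The change was 0.16 ± 0.13 (edgeR adjusted p = 0.631), with 4 of 8 mice higher, and 0.05 ± 0.10 without mouse 50. The acid sphingomyelinase gene Smpd1, whose product makes ceramide for the skin barrier, had 91.3 to 113 CPM (median 106) and 88.8 to 117 CPM (median 99.6). Its change was -0.04 ± 0.06 (edgeR adjusted p = 0.802), and 0.0029 without mouse 50. Unlike Psap, Smpd1 was at its lowest in mouse 50 at 30 months.

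Asah1, the acid ceramidase, had 80.1 to 104 CPM at 24 months (median 91.5) and 82.0 to 133 CPM at 30 months (median 95.2), with a change of 0.08 ± 0.09 (edgeR adjusted p = 0.74) that was 0.01 without mouse 50 and 0.14 without mouse 13. Npc2, a soluble carrier that hands cholesterol to the membrane protein NPC1, had 136 to 173 CPM (median 146) and 128 to 276 CPM (median 167). It was higher in 7 of 8 mice, mouse 13 being the exception, and its change was 0.16 ± 0.12 (edgeR adjusted p = 0.578). The 30-month value of mouse 50 was 1.58 times that of the next library of that age, and without this mouse the change was 0.06 ± 0.08. Without mouse 13 it was 0.25.

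Ppt1 encodes palmitoyl-protein thioesterase, which strips fatty acids from proteins and is deficient in an infantile form of neuronal ceroid lipofuscinosis. It had 73.4 to 86.3 CPM at 24 months (median 76.7) and 62.5 to 90.6 CPM at 30 months (median 65.1). The level was lower at 30 months in 7 of 8 mice, with changes of -0.30 to -0.15 on the log2 scale, and 0.30 higher in mouse 50. The fitted change was -0.18 ± 0.07, which is 0.884 of the 24-month level (unadjusted p = 0.0308, edgeR adjusted p = 0.359). Without mouse 50 the remaining ranges were 73.7 to 86.3 CPM and 62.5 to 71.9 CPM and did not overlap, as in 0.543% of the genes tested in that fit. The change was then -0.25 ± 0.05 (unadjusted p = 0.000634, edgeR adjusted p = 0.2). Mouse 50, the only mouse higher at 30 months, was singled out after its values were seen, so the values without it are descriptive. Leaving out any 1 of the 8 mice gave unadjusted p from 0.000634 to 0.0687, under 0.05 in 2 of the 8 fits, those without mouse 50 and without mouse 64. The antisense gene Cap1 shares 3.51% of the exon bases of Ppt1.

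Arsa, the sulfatase of the myelin and skin lipid sulfatide, had 18.5 to 32.2 CPM (median 23.6) and 14.6 to 29.1 CPM (median 23.1), with a change of -0.15 ± 0.09 (edgeR adjusted p = 0.537, higher in 2 of 8 mice). Without mouse 50 it was -0.21 ± 0.09 (unadjusted p = 0.0418, edgeR adjusted p = 0.398), and without mouse 43 it was -0.08. An antisense gene shares 18.8% of its exon bases. The other 4 lipid genes had changes of 0.18 (Lipa, the acid lipase), 0.05 (Galc), 0.04 (Npc1, the cholesterol transporter) and 0.02 (Gm2a, the GM2 activator that works with HEXA), all with edgeR adjusted p of 0.615 or above. Without mouse 50 they were 0.07 for Lipa, 0.01 for Galc, 0.06 for Npc1 and -0.12 for Gm2a. Without mouse 29 that of Lipa was 0.11 and that of Npc1 turned to -0.04. Without mouse 43 that of Npc1 was -0.00075. The mice differed widely in these. The change of Lipa was 0.99 in mouse 50 and 0.70 in mouse 29 but -0.29 in mouse 64, and that of Gm2a ran from -0.53 in mouse 13 to 1.04 in mouse 50.

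Among the membrane genes, Lamp1 was the steadiest of the 35 genes at 24 months, with a coefficient of variation of 2.85%. It had 427 to 464 CPM at 24 months (median 448) and 431 to 530 CPM at 30 months (median 457), and a change of 0.05 ± 0.06 (edgeR adjusted p = 0.742, higher in 4 of 8 mice), which was 0.02 without mouse 50. The antisense gene Grtp1 shares 9.31% of its exon bases. The related gene Lamp2, which also encodes a receptor of chaperone-mediated autophagy, had 325 to 410 CPM (median 353) and 281 to 421 CPM (median 339). The change of Lamp2 was -0.06 ± 0.09 (edgeR adjusted p = 0.798), or -0.11 without mouse 50. Its lowest value was that of mouse 13 at 30 months, and without this mouse the change turned to 0.01.

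Scarb2, the receptor that carries glucocerebrosidase to lysosomes, had 165 to 193 CPM (median 181) and then 170 to 233 CPM (median 188). Its change was 0.08 ± 0.07 (edgeR adjusted p = 0.631). Mcoln1, a cation channel that releases lysosomal calcium, had 70.9 to 80.9 CPM (median 74.2) and 66.9 to 114 CPM (median 78.7), with a change of 0.12 ± 0.08 (edgeR adjusted p = 0.565, higher in 5 of 8 mice). Both genes were highest in mouse 29 at 30 months, and both were lower at 30 months in mouse 50, with changes of -0.08 for Scarb2 and -0.11 for Mcoln1. Without mouse 29 the fitted changes were 0.04 for Scarb2 and 0.06 for Mcoln1. Cd63, a tetraspanin of lysosomes and secretory granules, had 66.4 to 95.2 CPM (median 73.6) and 68.8 to 120 CPM (median 82.1), with a change of 0.16 ± 0.11 (edgeR adjusted p = 0.576, higher in 6 of 8 mice). Without mouse 50 it was 0.07 ± 0.09, and without mouse 13 it was 0.24.

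Cln3, a membrane protein deficient in the juvenile ceroid lipofuscinosis, had 24.9 to 33.2 CPM at 24 months (median 29.2) and 22.8 to 36.7 CPM at 30 months (median 27.2). It was lower in 7 of 8 mice and 0.50 higher in mouse 50. The change was -0.08 ± 0.09 (edgeR adjusted p = 0.728), and without mouse 50 it was -0.16 ± 0.06 (unadjusted p = 0.0266, edgeR adjusted p = 0.357), while without mouse 64 it was -0.05. Apobr, on the other strand, shares 7.65% of its exon bases.

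Tpp1, the tripeptidyl peptidase whose loss causes a late infantile ceroid lipofuscinosis, had 118 to 149 CPM (median 128.5) and 108 to 151 CPM (median 123). Its change was -0.08 ± 0.06 (edgeR adjusted p = 0.612), with 3 of 8 mice higher, and mouse 50 was among the lower ones. Without mouse 75 the change of Tpp1 was -0.04. Tfeb had 18.3 to 25.8 CPM (median 20.3) and 15.5 to 24.3 CPM (median 22.0). Its change was 0.02 ± 0.09 (edgeR adjusted p = 0.945, higher in 5 of 8 mice). It turned to -0.03 without mouse 13 and to -0.02 without mouse 14, and was 0.07 without mouse 29. In mouse 50, where most of the 35 genes were high at 30 months, Tfeb was at 24.0 CPM and then at 24.3 CPM.

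Within single mice the 35 genes often shared a direction. At 30 months 29 of the 35 genes were higher in mouse 50, 23 in mice 43 and 75, and 18 in mouse 29. In mice 64, 13, 21 and 14 the number was 13, 12, 9 and 8. Among all genes tested, the share that was higher at 30 months was 46.6% in mouse 50 and between 47.0% and 50.9% in the other mice. The median change of the 35 genes was 0.47 in mouse 50 and between -0.10 (mouse 14) and 0.11 (mouse 43) in the other mice, while that of all genes stayed between -0.03 and 0.01. These genes share their libraries and are not independent of each other.

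**Figure D3:**
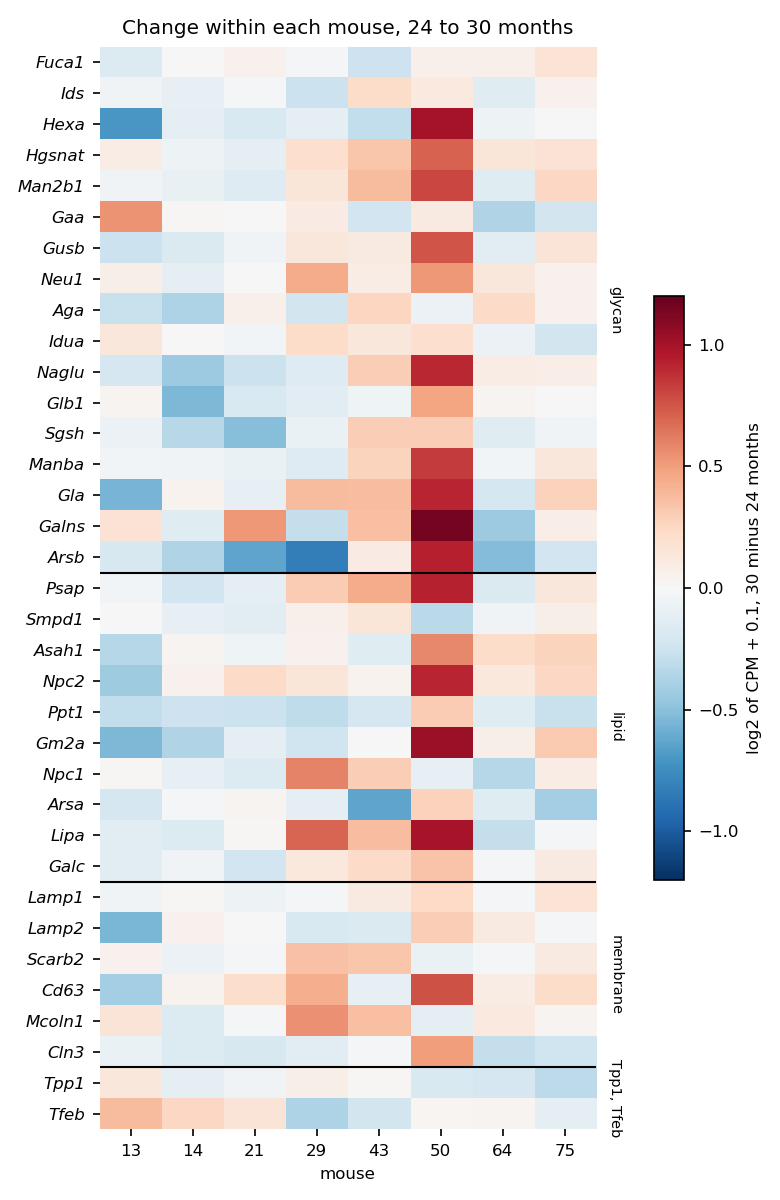
Change of log2(CPM + 0.1) from 24 to 30 months for the 35 genes (rows, by role) in each of the 8 mice (columns), red where higher and blue where lower at 30 months. The column of mouse 50 is red for 29 genes, up to 1.15 for Galns, whereas Smpd1, Tpp1, Mcoln1, Npc1, Scarb2 and Aga are lower in it.

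The summed level of the 35 genes was 3178 to 3620 CPM at 24 months (median 3506) and 3212 to 4626 CPM at 30 months (median 3500). In mouse 50 it went from 3311 to 4626 CPM, and the next highest library was mouse 29 at 30 months with 3901 CPM. Of the 35 genes, 20 had their highest value of all 16 libraries in mouse 50 at 30 months and 8 in mouse 29 at 30 months. By role, the summed CPM of mouse 50 changed by 0.72 (log2) for lipid genes, 0.46 for glycan genes and 0.23 for membrane genes. For Tpp1 and Tfeb together it changed by -0.15. Psap held 701 of the 1360 CPM of the lipid genes at 24 months and 1331 of the 2243 CPM at 30 months. By the median of single genes the order differed, with 0.71 for glycan, 0.46 for lipid and 0.27 for membrane genes.

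Markers of other cells moved in the same mouse. The 14 macrophage markers, all detected, summed to 771 to 1257 CPM at 24 months and 629 to 2735 CPM at 30 months, and mouse 50 went from the lowest of these 24-month values to the highest at 30 months. In this mouse the 6 fibroblast markers went from 3905 to 14030 CPM and the 8 T cell markers from 48.2 to 218 CPM. The endothelial markers went from 124 to 296 CPM and the mast cell markers from 309 to 756 CPM. The basal keratinocyte markers went from 13870 to 8573 CPM and the differentiated keratinocyte markers from 15860 to 12720 CPM. Not all of this was particular to mouse 50. The endothelial sum was higher at 30 months in 6 of 8 mice, with 113 to 269 CPM in mouse 21 and 120 to 280 CPM in mouse 29. The differentiated keratinocyte sum was higher in only 2 mice and fell further in mouse 29 (18030 to 12680 CPM). In mouse 13 the macrophage markers went from 1257 to 629 CPM, and the summed 35 genes from 3509 to 3215 CPM. The sums went opposite ways in 2 mice. In mouse 64 the macrophage markers went from 1142 to 1485 CPM and the 35 genes from 3620 to 3494 CPM, and in mouse 14 from 870.1 to 950.3 CPM and from 3419 to 3212 CPM. Over all mice, 13 of the 14 macrophage markers had a fitted change above 0 (median 0.29), beside 52.1% of all genes tested, and without mouse 50 it was 9 of 14 (median 0.08). In edgeR 0 of them passed an adjusted p of 0.05 and 0 had an unadjusted p under 0.05, and in DESeq2 these counts were 0 and 1, beside 12.2% and 11.5% of all genes at that unadjusted p in edgeR and DESeq2. The part of these cells in the levels of the 35 genes was not tested.

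**Figure D4:**
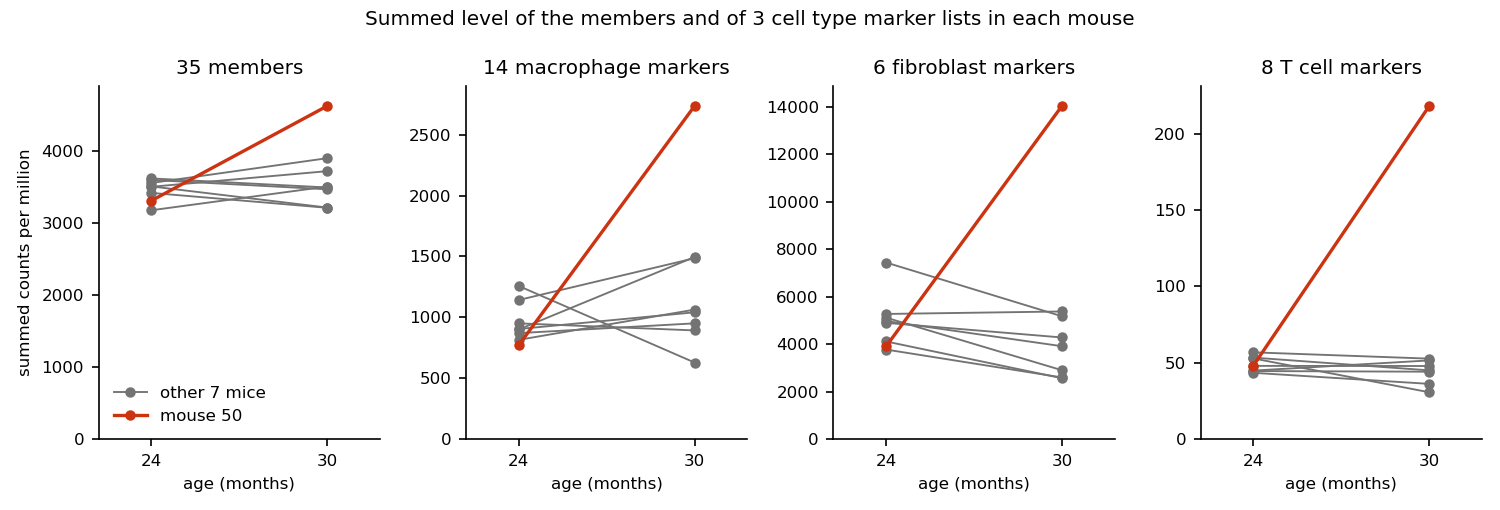
Summed CPM of the 35 genes and of the macrophage, fibroblast and T cell marker lists at 24 and 30 months, with 1 line per mouse and mouse 50 in red. In all 4 panels mouse 50 at 30 months is the highest library, with 4626 CPM for the 35 genes and 2735 CPM for the macrophage markers.

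Without mouse 50, 19 of the 35 genes had a fitted change above 0 and 16 below 0, with a median of 0.01. In that fit 5 genes had an unadjusted p under 0.05, Arsa, Arsb, Cln3, Hexa and Ppt1, beside 11.9% of all genes tested. All 5 were lower at 30 months. Of all genes tested, 7.27% were both lower and under this unadjusted p. The smallest edgeR adjusted p of the 35 genes was 0.2, that of Ppt1. In the same fit all 6 fibroblast markers had a change below 0 (median -0.84), with 4 of 6 at an unadjusted p under 0.05, and their summed level was lower at 30 months in 6 of the 7 mice. Of the 7 Langerhans and dendritic cell markers, 5 had an unadjusted p under 0.05, 1 higher and 4 lower (median -0.43). The part of these cells in the values of the 5 genes was not tested. Hexa, Ppt1 and Cln3 were lower in all 7 remaining mice, beside 2.89% of the genes tested. Mouse 50 was the only mouse in which these genes were higher, and it was singled out after its values were seen. Leaving it out fixed this outcome for them, so the 2.89% is no measure of an excess. In all 7 mice, 0 of the 35 genes were higher, beside 1.88%.

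The spread between mice was wider at 30 months for 33 of the 35 genes, Fuca1 and Tfeb being the exceptions. A wider spread was also seen in 78.2% of all genes tested. The median coefficient of variation of the 35 genes was 9.05% at 24 months and 17.8% at 30 months. Without mouse 50 the medians were 9.28% and 12.3%, and 28 of the 35 genes had the wider spread at 30 months, beside 73.4% of the genes tested.

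The rest of the lysosomal pathway was read from 5 further lists with 93 genes, and 0 of these passed an adjusted p of 0.05 in edgeR or DESeq2. At an unadjusted p under 0.05 there were 9 in edgeR, 3 higher and 6 lower at 30 months, and 9 in DESeq2, beside 12.2% of all genes tested in edgeR (4.83% higher and 7.37% lower) and 11.5% in DESeq2. Without mouse 50 there were 4 in edgeR, 1 higher and 3 lower, beside 11.9% of all genes tested. These 4 were Siae, Sort1, Tmem192 and Zkscan3. Of 21 other hydrolases, 1 was lower and 1 higher at an unadjusted p under 0.05, beside the 7.37% and 4.83% of all genes tested. Siae, the sialic acid acetylesterase, was at 14.4 ± 2.34 CPM (SD, n = 8 mice) at 24 months and at 11.4 ± 1.25 CPM at 30 months, with a log2 change of -0.33 ± 0.11 (SE, edgeR adjusted p = 0.294). Plbd2, a phospholipase B-like protein, was at 68.0 ± 4.24 and 76.8 ± 9.34 CPM, with a change of 0.17 ± 0.07 (edgeR adjusted p = 0.367, higher in 7 of 8 mice).

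Of 19 subunits and partners of the vacuolar ATPase, the pump that acidifies the lysosome, 14 had a change above 0, beside 52.1% of all genes tested, and 1 had an unadjusted p under 0.05, beside 12.2%. This was Tcirg1, the a3 subunit known from osteoclasts, at 67.0 ± 5.04 and 86.0 ± 28.0 CPM, with a change of 0.31 ± 0.13 (edgeR adjusted p = 0.39) that was 0.18 ± 0.09 without mouse 50. Atp6ap1, an accessory subunit of the pump, came next, with a change of -0.06 ± 0.05 (edgeR adjusted p = 0.679). The median change of the list was 0.02.

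Of 16 genes for sorting and modifying hydrolases, 5 had a change above 0 and 11 below 0, beside 52.1% of all genes tested above 0. An unadjusted p under 0.05 was found for 3 of the 16, all lower, beside 7.37% of all genes tested. Sort1, the sorting receptor sortilin, was at 129 ± 14.2 and 109 ± 18.6 CPM, with a change of -0.24 ± 0.09 (edgeR adjusted p = 0.321). Vps41, a subunit of the HOPS tethering complex, was at 81.8 ± 4.77 and 75.7 ± 3.48 CPM and lower in all 8 mice, with a change of -0.11 ± 0.05 (edgeR adjusted p = 0.39). The third was Gnptab, whose product starts the mannose 6-phosphate tag, with -0.18 ± 0.08 (edgeR adjusted p = 0.392).

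Of 20 other lysosomal membrane and transport genes, 1 was higher and 1 lower at an unadjusted p under 0.05, beside 4.83% and 7.37% of all genes tested. Tmem192 was at 26.8 ± 2.03 and 31.5 ± 2.63 CPM, with a change of 0.23 ± 0.07 (edgeR adjusted p = 0.285), and Laptm4b at 89.3 ± 4.59 and 79.5 ± 11.8 CPM, with a change of -0.18 ± 0.07 (edgeR adjusted p = 0.349). Of 17 genes for factors related to TFEB and for mTORC1 at the lysosome, 1 was lower at that threshold, beside the same 7.37%. This was Zkscan3, a repressor of lysosomal and autophagy genes, at 78.3 ± 11.6 and 65.4 ± 4.68 CPM, with a change of -0.25 ± 0.07 (unadjusted p = 0.00547, edgeR adjusted p = 0.271). Rptor, the mTORC1 scaffold raptor, had a change of 0.15 ± 0.07 (edgeR adjusted p = 0.428).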

How the data were processed

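Total RNA from ear skin of 8 mice at 2 ages was sequenced as single-end reads. The authors aligned the reads to the mouse genome (TopHat2 2.1.0 and HTSeq 0.6.1p1 in the submitters' processing notes, build mm10) and deposited raw counts per gene and library, not normalized. The strand setting is not given in the sources used here, so genes that share exons are uncertain. The 5 summary lines that name no gene took 18.7% to 21.1% of each library and were left out. The table held 0 columns of other samples. Pairs come from the mouse numbers in the titles and the study's sample sheet. Deviations from the age means had a median correlation of -0.03 within mice and -0.003 between mice.

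GENCODE M21 (GRCm38) gave symbols and exon lengths for 45143 of the 45706 identifiers. Counts were filtered (filterByExpr), scaled (TMM) and tested with edgeR 4.0.16 in R 4.3.3, with terms for mouse and age. Adjusted p-values are Benjamini-Hochberg values over all 20116 genes tested, with a threshold of 0.05. Changes within a mouse are differences of log2(CPM + 0.1). The 95% intervals use the standard error and degrees of freedom of the edgeR fit. P-values set the fitted change within mice against the spread of that change between these mice. The test was run on simulated data before use.

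The genes and lists were chosen with earlier results of these data known. Genes are named by role: the 3 with the highest median RPKM and the 3 with the smallest p in each role, Tpp1 and Tfeb, any gene past the threshold or with 1 direction in all mice, and the 2 genes with the smallest p in each pathway list. Arsb, Cln3 and Gnptab were added after their values were seen. The alternatives were other scalings, DESeq2 1.42.0, no filter, no replicate block, the label age as a covariate and each mouse left out in turn.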

Additional observations from a re-analysis of the deposited data

Results flagged for a closer look

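In 60 sets of 8 within-mouse values, 14 held 1 mouse far from the other 7, where chance flags about 1 in 20 such groups. The sets share the same libraries, and some are medians or sums of genes in other sets. They are not independent, so this rate cannot show an excess. Of these 14 values, 12 belong to mouse 50. For single genes they are the changes of Hexa (0.9956 on the log2 scale, median of the 8 mice -0.12), Gusb (0.7586, median 0.03), Manba (0.8346, median -0.03), Ppt1 (0.3039, median -0.25) and Cln3 (0.5044, median -0.14). The median change of all 35 genes (0.4698), of the glycan genes (0.7063) and of the lipid genes (0.4601), and the change of the summed CPM of the 35 genes (0.4826), stood apart in the same mouse. So did the summed CPM of the T cell (2.179), B and plasma cell (2.317) and fibroblast markers (1.845). Of the 7 B and plasma cell markers only 2 passed the filter on low counts. Their sum in mouse 50 went from 1.58 to 7.89 CPM, and the median change of this list was 0.32. The sebaceous gland markers stood apart in mouse 43 (1.357) and the pigment cell markers in mouse 29 (-2.547).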

How the results depend on the processing

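Over 14 alternatives, 0 of the 35 genes passed the adjusted threshold, and the smallest adjusted p was 0.2 (Ppt1 without mouse 50). Among all genes, 4 passed without the replicate block that pairs the libraries of a mouse and 241 with DESeq2's Wald test, against 0 with edgeR in the paired fit. The count of the 35 genes at an unadjusted p under 0.05, with the share of all genes tested in the same fit, was 1 in the paired fit (12.2%), 1 without the pairing (15.8%) and 2 with the label age as a covariate (Hgsnat and Ppt1, 11.1%). It was 0 to 5 when each mouse was left out: 0 without mouse 29 (9.61%), 43 (17.8%) or 75 (8.89%), 2 without mouse 13 (Cd63 and Npc2, 11.4%) and 5 without mouse 50 (11.9%). The median log2 change of the 35 genes lay between 0.01 (without mouse 50) and 0.07 (without mouse 21). The fitted direction of 22 genes held in all alternatives, and that of 13 turned in at least 1; with all mice and the paired fit the changes of these 13 were at most 0.07 in size. Hexa turned to 0.03 without mouse 13, and without mouse 50 Gm2a turned to -0.12 and Naglu to -0.08. The cause was not tested. The lowest count of any of the 35 genes in a library was 116, for Galns.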

Other observations

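Among the marker lists, the 7 skeletal muscle markers all had a fitted change above 0 (median 0.83 on the log2 scale, 0 with an unadjusted p under 0.05 in edgeR and 1 in DESeq2), with summed levels of 644 to 8109 CPM at 24 months and 926 to 6339 CPM at 30 months. The 6 endothelial markers also had changes above 0 (median 0.51), with 3 of 6 at an unadjusted p under 0.05, beside 12.2% of all genes tested, and 2 of 6 without mouse 50. The 6 tested cartilage markers had changes below 0 (median -0.48), with 4 of 6 at an unadjusted p under 0.05 beside the same 12.2%, and 3 of 6 without mouse 50, and their summed level was lower at 30 months in all mice but 1. The 5 tested pigment cell markers had changes below 0 (median -0.48). Of these, 4 were lower in at least 7 of 8 mice, beside 8.59% of all genes tested. An unadjusted p under 0.05 was found for 1 of the 5 in edgeR, beside 12.2% of all genes tested, and for 2 in DESeq2, beside 11.5%. Without mouse 50 it was found for 0 in edgeR, beside 11.9%. In edgeR 0 genes of these 4 lists passed the adjusted threshold, and in DESeq2 1 did, Col2a1, the main collagen of cartilage.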
